A study of Mus musculus with 12 samples.

Results

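Prenatal ethanol exposure was examined as a main effect in the adult hippocampus, with 6 ethanol-exposed libraries set against 6 libraries of mice without ethanol. The comparison takes in 12 of the 12 samples of the series, grouped by their labels. All mice were labelled C57BL/6 (C57BL/6J in the study's methods) at postnatal day 70, and the methods describe them as males. CC mice had neither exposure. EC mice were born to dams that drank 10% ethanol by choice during gestation. CS mice were separated from dam and littermates for 3 h a day on postnatal days 2 to 14, and ES mice had both treatments. Each group held 3 libraries, so that EC and ES formed the ethanol side, CC and CS the side without ethanol, and separation entered the model as a second factor. The dose that each pup received depended on the drinking of its dam, which continued after birth according to the methods, and the labels do not tie mice to litters. The p values therefore measure the spread between these mice, and littermates among them cannot be told apart from unrelated mice.

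Ethanol crosses the placenta and reaches the developing brain, where the hippocampus, a region for learning, memory and feedback control of the stress axis, is one of the structures known to be sensitive to it. Ethanol itself is cleared by alcohol dehydrogenase, catalase and cytochrome P450 and then by aldehyde dehydrogenases, long before adulthood.

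Abundance was measured as TPM, a relative abundance corrected for transcript length that the authors had already scaled between libraries. TPM were summed over the transcripts of a gene, and 14455 of 35580 genes had a mean of 1 TPM or more over the 12 libraries and were tested. Differences are on the log2(TPM + 0.5) scale, ethanol minus no ethanol, with their standard error (SE), and group values are means ± SD over 6 libraries. A gene was called when its unadjusted p in limma was under 0.01, the threshold that the study used. Beside it stands the p of an exact permutation of the ethanol labels within separation strata, which cannot go below 0.005. The libraries held between 12050000 and 14950000 read pairs by the step size of their low values, so that 3 read pairs was taken as the floor below which a value cannot be told from 0, for counting error only.

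Of the 14455 genes, 166 were called, which is 1.15% of those tested. They split into 117 genes that were higher after ethanol (0.809%) and 49 that were lower (0.339%), a split that turned to 36 higher and 62 lower when TPM were brought to a common total. After Benjamini-Hochberg adjustment 1 gene stayed under 0.05 in limma (0.00692%), while 927 genes had an unadjusted p under 0.05 (6.41%). At 0.01 and 0.05, shares not far from 1.15% and 6.41% pass when no gene differs. Differences were small: the median size among called genes was 0.38 on the log2 scale, 122 of the 166 differed by less than 0.5, and 11 by 1 or more. Called genes that were higher had a median transcript length of 1860 bases, those that were lower 3080 bases, and all tested genes 2440 bases. In 31 genes (0.214%) every ethanol library lay above every library without ethanol, and in 17 (0.118%) every one lay below; 24 and 15 of these were called. Of the called genes, 8 of the 117 higher genes had a mean under 1 TPM in the mice without ethanol and 3 of the 49 lower genes a mean under 1 TPM in the ethanol mice.

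The single gene past the adjusted threshold was Gm49070 (ENSMUSG00000115472.1), a processed pseudogene on the plus strand of chr14:124398691-124398972 in GRCm38. It was listed at 0 in all 6 libraries without ethanol and at 2.18, 3.73 and 2.03 TPM in EC and 1.09, 2.16 and 2.43 TPM in ES. Every ethanol library was thus above 0 and no other library was (adjusted p = 0.000814), and the gene passed the filter on the mean through the ethanol libraries alone. On so short a transcript these values are worth no more than 2.2 read pairs in any library, below the 3 read pairs that a count of 0 allows, so no fold is given and the p is a description only. The sequence is shown because it is a near copy of an abundant gene. In the sequence from the GENCODE transcripts, 5′ to 3′, capitals mark bases that differ from the aligned transcript of Msl1, which codes for a subunit of a histone acetyltransferase complex.
Gm49070: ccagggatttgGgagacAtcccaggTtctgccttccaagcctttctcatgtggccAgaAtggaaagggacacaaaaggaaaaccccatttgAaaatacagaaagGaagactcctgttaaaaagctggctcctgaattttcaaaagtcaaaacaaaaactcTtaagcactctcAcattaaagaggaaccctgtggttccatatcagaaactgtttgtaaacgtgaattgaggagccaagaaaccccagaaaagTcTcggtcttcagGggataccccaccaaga
Over 275 aligned bases 95.6% were identical and 12 differed. Msl1 itself was at 69.1 ± 3.78 TPM without ethanol and 67.4 ± 4.25 TPM after ethanol (difference -0.04, SE 0.06, adjusted p = 0.837). How many of the pseudogene's read pairs came from Msl1 was not tested.

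Among protein-coding genes, the 12 higher and the 12 lower genes with the smallest p and the same sign with and without separation were taken by rule. The leading gene was Cth on chr3:157894248-157925077, which codes for cystathionine gamma-lyase, the enzyme that makes cysteine from cystathionine. Cth was at 4.70, 4.86 and 3.68 TPM in CC, 3.89, 5.34 and 4.68 in CS, 7.56, 6.95 and 6.86 in EC and 5.98, 7.67 and 7.59 in ES. The lowest ethanol library lay above the highest without ethanol. The means were 4.53 ± 0.626 and 7.10 ± 0.651 TPM, a difference of 0.60 (SE 0.10, p = 7.2e-05, exact permutation p = 0.005, adjusted p = 0.404). Dhx35, a DEAH-box RNA helicase on chr2:158794807-158858214, did not overlap between the sides either. Its values were 8.53 to 10.6 TPM without ethanol, median 9.51, and 11.7 to 16.8 after ethanol, median 14.7 (difference 0.57, SE 0.10, p = 8.38e-05, exact permutation p = 0.005). Cth and Dhx35 were also called within each stratum of the design, in EC against CC and in ES against CS, together with Gm49070 and with no other gene.

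Several of the higher genes code for nuclear proteins. Dpf2, a subunit of the BAF chromatin remodelling complex, was tight without ethanol, between 18.8 and 20.2 TPM, and lay between 20.5 and 27.6 TPM in the ethanol mice, with no overlap (difference 0.29, SE 0.07, p = 0.000767, exact permutation p = 0.005). Sinhcaf, which belongs to a SIN3 histone deacetylase complex, was at 15.2, 13.2 and 14.9 TPM in ES but at 5.45, 8.79 and 4.30 TPM in EC. The CC and CS libraries held 2.78 to 8.25 TPM, so that the EC libraries overlapped them and the ES libraries did not (difference 0.91, SE 0.22, p = 0.00127, exact permutation p = 0.015). Rfxank, a subunit of the RFX factor that acts on MHC class II promoters, had 7.68 ± 0.531 and 9.75 ± 0.875 TPM (difference 0.32, SE 0.08, p = 0.00144, exact permutation p = 0.005).

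Genes of signalling and transport made up others of the 12. Prkd2, the serine/threonine kinase protein kinase D2, was at 1.07 to 2.42 TPM without ethanol and 2.58 to 4.33 TPM after it, without overlap (difference 0.78, SE 0.18, p = 0.000704, exact permutation p = 0.005). Mfng, a glycosyltransferase that modifies Notch receptors, had means of 3.10 ± 0.541 and 4.46 ± 0.609 TPM (difference 0.47, SE 0.10, p = 0.000636, exact permutation p = 0.01). Bicdl1, an adaptor between dynein and its cargo, was the most abundant of the 12, at 49.2 to 59.6 TPM without ethanol and 61 to 72.3 TPM after ethanol. Its 2 sides did not overlap, although the difference was the smallest of the 12 at 0.27 (SE 0.07, p = 0.00149, exact permutation p = 0.005).

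The remaining higher genes were of low abundance. Acrbp, known for binding proacrosin in sperm, was at 1.79 ± 0.513 and 3.04 ± 0.706 TPM (difference 0.64, SE 0.15, p = 0.000949, exact permutation p = 0.005). Ptges3l, a gene named for its likeness to a co-chaperone of HSP90, had 2.22 ± 0.298 and 3.64 ± 0.634 TPM (difference 0.60, SE 0.13, p = 0.000647, exact permutation p = 0.01). Gm8206, a predicted gene, was at 0.559 to 0.878 TPM without ethanol, worth 5 to 9.4 read pairs a library, and at 0.972 to 2.50 TPM after ethanol (difference 0.84, SE 0.19, p = 0.000695, exact permutation p = 0.005). The highest value without ethanol was thus below the lowest after ethanol, at a depth of 11 to 26 read pairs in the ethanol libraries. With a mean of 0.736 TPM without ethanol, Gm8206 passed the filter through the ethanol libraries alone, so its p and the lack of overlap are a description only.

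Tmem253, a transmembrane protein gene, had the largest difference of the 12 (1.39, SE 0.33, p = 0.00109, exact permutation p = 0.02), and its 4 groups did not behave alike. It was at 0.233, 0.419 and 0.741 TPM in CC, each worth no more than 2.5 read pairs, and at 4.29, 3.48 and 4.78 TPM in EC. In CS it was at 4.43, 1.63 and 1.79 TPM and in ES at 3.97, 3.12 and 3.46 TPM. The CC libraries were the low ones, and CS1 overlapped the ethanol mice. The test of the difference between strata passed the unadjusted threshold of 0.01, with an adjusted p = 1. As all CC values lie under 3 read pairs, the sizes of these differences rest on the pseudocount.

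**Figure D1:**
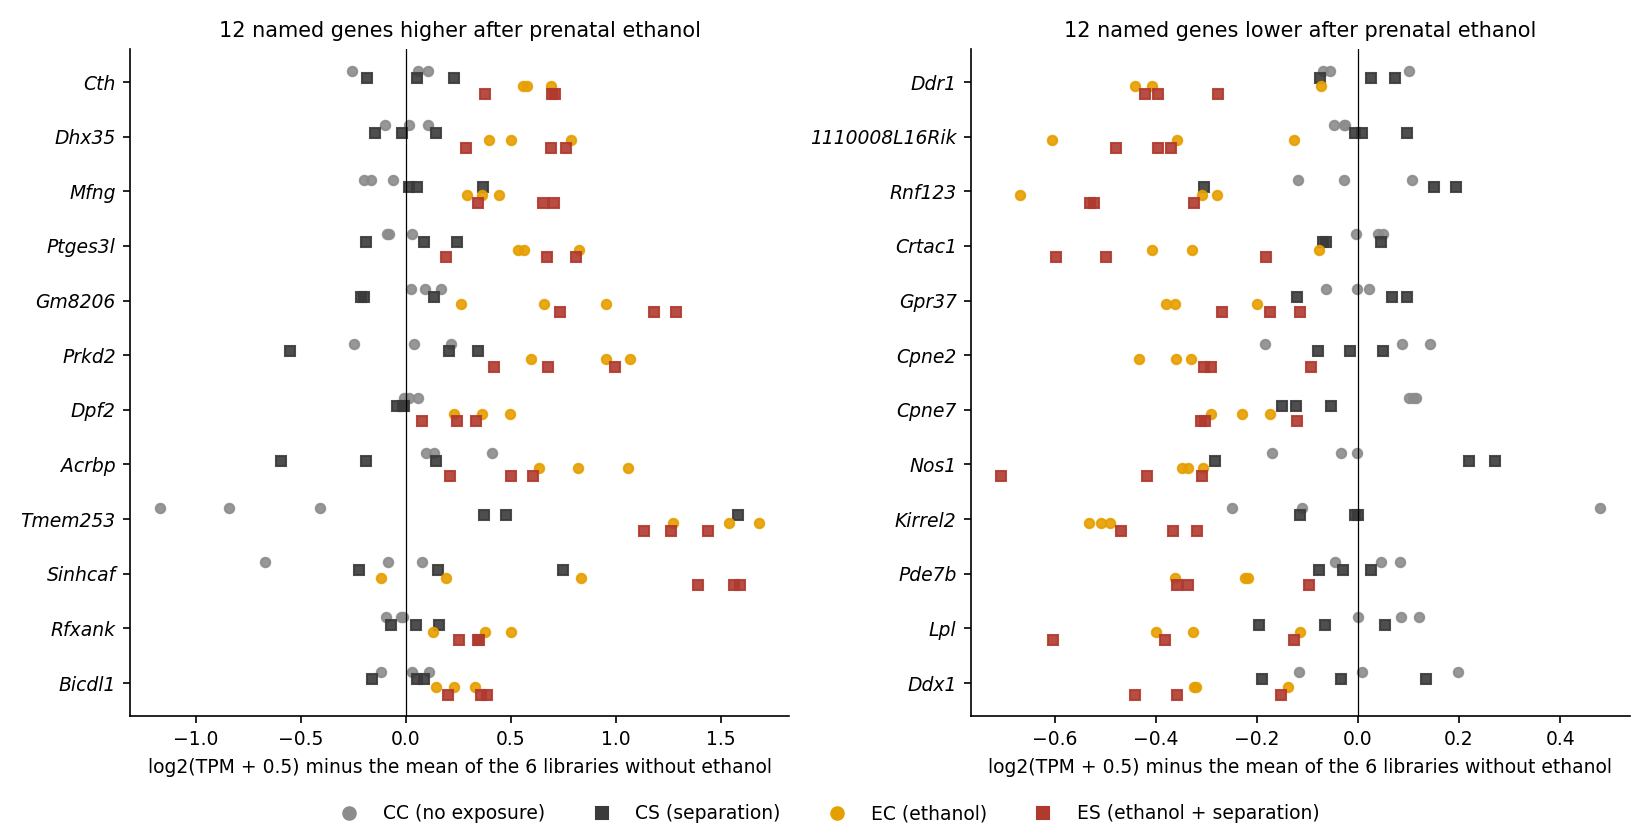
Each point is 1 library's log2(TPM + 0.5) minus the mean of the 6 libraries without ethanol, for the 12 higher (left) and 12 lower (right) protein-coding genes named by rule, with colours and shapes for the 4 groups. The ethanol points sit apart from the others in Cth, Dhx35, Prkd2, Dpf2 and Bicdl1, and the 3 CC points of Tmem253 lie to the left of all its others.

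On the lower side, the gene with the smallest p was Ddr1, a receptor tyrosine kinase for collagen on chr17:35681567-35704621. It was at 36.8 to 41.7 TPM without ethanol, median 38.4, and at 28.5 to 36.8 TPM after ethanol, median 29.3, with EC1 just reaching the range of the unexposed mice (difference -0.34, SE 0.07, p = 0.000513, exact permutation p = 0.005). Gpr37, an orphan receptor found in oligodendrocytes and neurons, fell from 39.8 ± 2.24 to 33.4 ± 2.49 TPM (difference -0.25, SE 0.06, p = 0.00143, exact permutation p = 0.01). Kirrel2, an adhesion molecule of the immunoglobulin family, was at 4.62 to 7.97 TPM in the mice without ethanol and at 3.71 to 4.38 TPM in all ethanol mice, without overlap (difference -0.45, SE 0.12, p = 0.00254, exact permutation p = 0.005). Crtac1, a secreted protein of neurons and cartilage, was lower in every ethanol library as well, at 52.2 to 56.7 against 36.1 to 52.0 TPM (difference -0.35, SE 0.08, p = 0.000793, exact permutation p = 0.005).

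Enzymes of second messengers were among the lower genes. Nos1, neuronal nitric oxide synthase, was at 23.1, 20.5 and 22.6 TPM in CC, 18.9, 28.0 and 27.0 in CS, 18.2, 18.1 and 18.6 in EC and 18.6, 14.0 and 17.2 in ES. All 6 ethanol values lay below the 6 others, with CS1 closest to them (difference -0.40, SE 0.11, p = 0.00236, exact permutation p = 0.005). Pde7b, a phosphodiesterase that breaks down cAMP, was at 9.91 to 11.1 TPM without ethanol and 8.05 to 9.77 TPM after it, again without overlap (difference -0.27, SE 0.07, p = 0.00267, exact permutation p = 0.005). A pair of copines, which bind phospholipids in a calcium-dependent way, fell together. Cpne2 had 23.6 ± 1.95 and 19.0 ± 1.60 TPM (difference -0.30, SE 0.07, p = 0.00143, exact permutation p = 0.005), and Cpne7 124 ± 10.5 and 105 ± 5.72 TPM (difference -0.24, SE 0.06, p = 0.00156, exact permutation p = 0.015).

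The other lower genes were Rnf123, an E3 ubiquitin ligase (28.1 ± 3.62 and 20.6 ± 2.26 TPM), 1110008L16Rik (7.16 ± 0.280 and 5.37 ± 0.657 TPM), Lpl, which hydrolyses the triglycerides of lipoproteins (15.4 ± 1.24 and 12.2 ± 1.61 TPM), and Ddx1, a DEAD-box RNA helicase (97.5 ± 10.1 and 79.6 ± 6.69 TPM). Their differences were -0.44, -0.39, -0.33 and -0.29, in that order. In 1110008L16Rik the sides did not overlap, whereas in Lpl the ethanol libraries EC3 and ES1 lay inside the range of the others.

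Called genes that are not protein-coding were mostly copies of other genes. Gm4202 (chr3:92689426-92690158) fell from 42.6 ± 12.7 to 19.1 ± 5.77 TPM (difference -1.13, SE 0.23, p = 0.000326, exact permutation p = 0.01), with CS3 at 21.6 TPM inside the ethanol range. It is 99.9% identical to Ywhaz, which codes for a 14-3-3 protein and was at 762 ± 24.7 and 694 ± 72.6 TPM (adjusted p = 0.70). Rpl10a-ps1 was at 17.7, 10.7, 30.2, 14.1 and 9.44 TPM in 5 libraries without ethanol and at 0.0028 TPM in CS3. The ethanol libraries had at most 3.42 TPM, in ES2, and all of its 654 bases are identical to the ribosomal protein gene Rpl10a. kallisto divides read pairs that match several transcripts by an estimate, so the split between such copies and their parent genes is uncertain. Gm49275, of 97 bases, is shorter than the fragments that were sequenced and its values of 3.89 to 11.9 TPM in ethanol mice and 0 to 5.47 TPM in the others stand for less than 1 read pair each.

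The 2 strata of the design share no libraries, but both contrasts come from 1 fit that pools the spread, and the methods assign separation within litters, so that littermates can stand in both. Without separation, EC against CC, 70 genes were called (0.484%). With separation, ES against CS, 91 were called (0.63%). When each stratum was fitted on its own libraries the order turned, with 77 and 70 genes. Of the 70 genes, 48 had the same sign in the other stratum, 9 of them with a p under 0.05, and 3 were called there. Of the 91 genes, 59 had the same sign, again 9 with a p under 0.05 and 3 called. Over all tested genes 65.7% had the same sign in both strata, and the differences of the strata correlated with r = 0.209 across the 14455 genes, which are not independent of each other. In all, 43 genes had a p under 0.05 in both strata with the same sign, 31 higher and 12 lower, and all of them belong to the 166 called genes. That overlap is close to given in advance, because the difference over all 12 libraries averages those of the 2 strata.

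**Figure D2:**
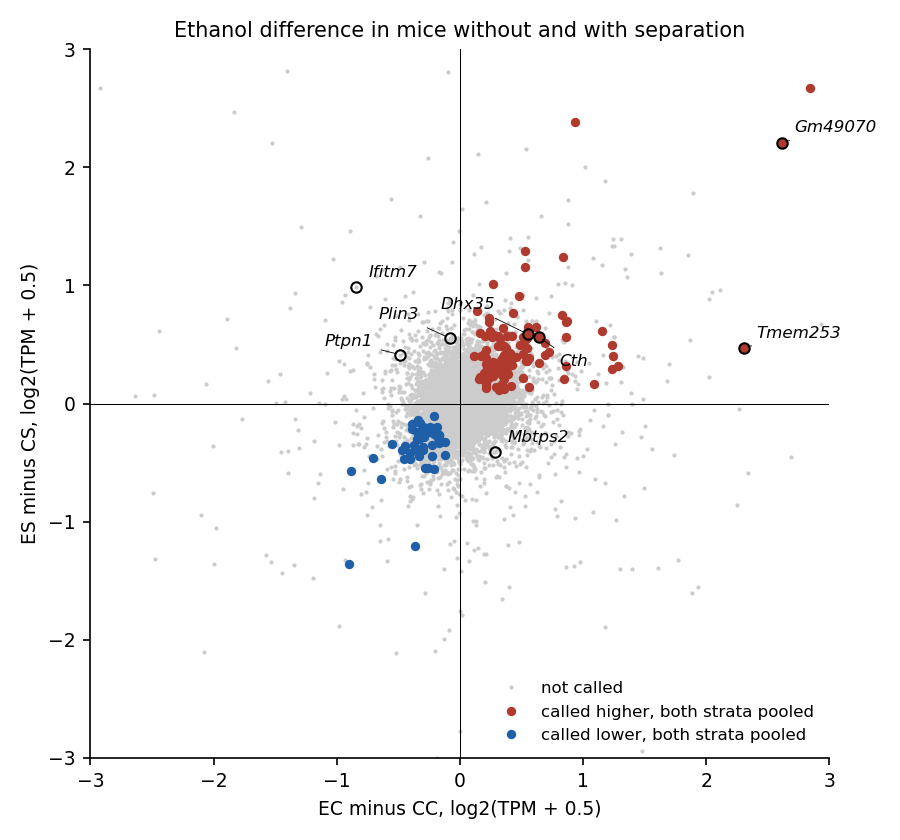
Each point is a gene, with the difference EC minus CC on the x axis and ES minus CS on the y axis, both in log2(TPM + 0.5), and genes called over all 12 libraries in red (higher) or blue (lower). Named genes are circled, 14 genes lie beyond the axes, and Cth and Dhx35 sit near the diagonal while Mbtps2, Ptpn1 and Ifitm7 have opposite signs in the 2 strata.

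A difference of the ethanol effect between the strata was called in 45 genes (0.311%) at an unadjusted p under 0.01. None passed adjustment in limma, where 274 genes had an unadjusted p under 0.05 (1.9%). Both shares lie below what these thresholds let through when no gene differs. Mbtps2, which codes for the site-2 protease that releases membrane-bound transcription factors such as SREBP, had the smallest p among the protein-coding genes. It was at 9.19, 9.48 and 9.95 TPM in CC and 11.2, 12.3 and 11.7 in EC, but at 13.4, 12.9 and 14.2 in CS and 10.2, 10.0 and 9.79 in ES. Ethanol mice were thus above their controls without separation and below them with it (differences 0.29 and -0.41, test of the change -0.70, SE 0.13). Hyal2, a hyaluronidase, showed 0.12 and -0.55 (change -0.68, SE 0.17).

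Changes of the other sign were led by Plin3, a coat protein of lipid droplets. It lay between 14.3 and 18.7 TPM in CC, CS and EC and at 22.0, 23.0 and 22.4 TPM in ES (change 0.64, SE 0.14). Ptpn1, a tyrosine phosphatase that acts on the insulin and leptin pathways, differed by -0.49 between EC and CC and by 0.41 between ES and CS (change 0.91, SE 0.23). With a common total the change of Ptpn1 was not called, and over the settings other than single-library refits it was 0.87 to 0.92. Ifitm7, of the interferon-induced transmembrane family, had -0.84 and 0.99 (change 1.83, SE 0.42) at 0.812 to 3.76 TPM. All 5 genes passed the unadjusted threshold, each with an adjusted p = 1. For Mbtps2, Ptpn1 and Ifitm7 a main effect averages over opposite differences, and none of the 3 was called in it.

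Of the gene lists laid out for this tissue and treatment, the erythroid genes stood out. Blood remains in the vessels of dissected tissue, and its red cells carry globin RNA. Of 8 listed genes 5 were tested, and 5 of the 5 were higher (all genes: 0.809% called higher), with a median difference of 0.82 beside 0.015 over all genes. Hbb-bs, an adult beta globin, was at 1009, 804 and 863 TPM in CC, 1738, 1246 and 1449 in CS, 1713, 3561 and 1502 in EC and 1192, 3487 and 2130 in ES (difference 0.87, SE 0.27, p = 0.007, exact permutation p = 0.02). CC held the lowest values, EC2 and ES2 the highest, and ES1 lay below all 3 CS libraries. The differences of Hbb-bt (0.88, SE 0.23, p = 0.00232, exact permutation p = 0.01), Hba-a2 (0.82, SE 0.23, p = 0.00394, exact permutation p = 0.02) and Hba-a1 (0.80, SE 0.24, p = 0.00572, exact permutation p = 0.03) were alike. Alas2, the first enzyme of haem synthesis in red cell precursors, is given although it was chosen after its values were seen, with 9.41 ± 2.80 and 14.7 ± 4.11 TPM (difference 0.63, SE 0.20, p = 0.00789, exact permutation p = 0.035).

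In each of the 5 genes the difference was larger without separation, between 1.09 and 1.28, than with it, between 0.17 and 0.61. The test of that change gave p values of 0.0418 to 0.263 for the 4 globin genes, which do not pass the threshold of 0.01. The other 3 listed genes had a mean under 1 TPM and were not tested, among them Slc4a1, the anion exchanger of the red cell membrane, with no library above 0.674 TPM. Hba-a1 and Hba-a2 are near-identical copies and Hbb-bs and Hbb-bt close ones, so that the split within each pair rests on the estimate. In whole tissue, more blood in a sample and more globin RNA per cell cannot be told apart. Without the 3 libraries EC2, ES2 and ES3, 0 of the 5 genes were called in limma, with all 5 still above 0 and a median of 0.49. None was called either with the mitochondrial level of each library as a term in the model, and without CC2, CC3 or ES2 alone only 1 of the 5 was called.

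**Figure D3:**
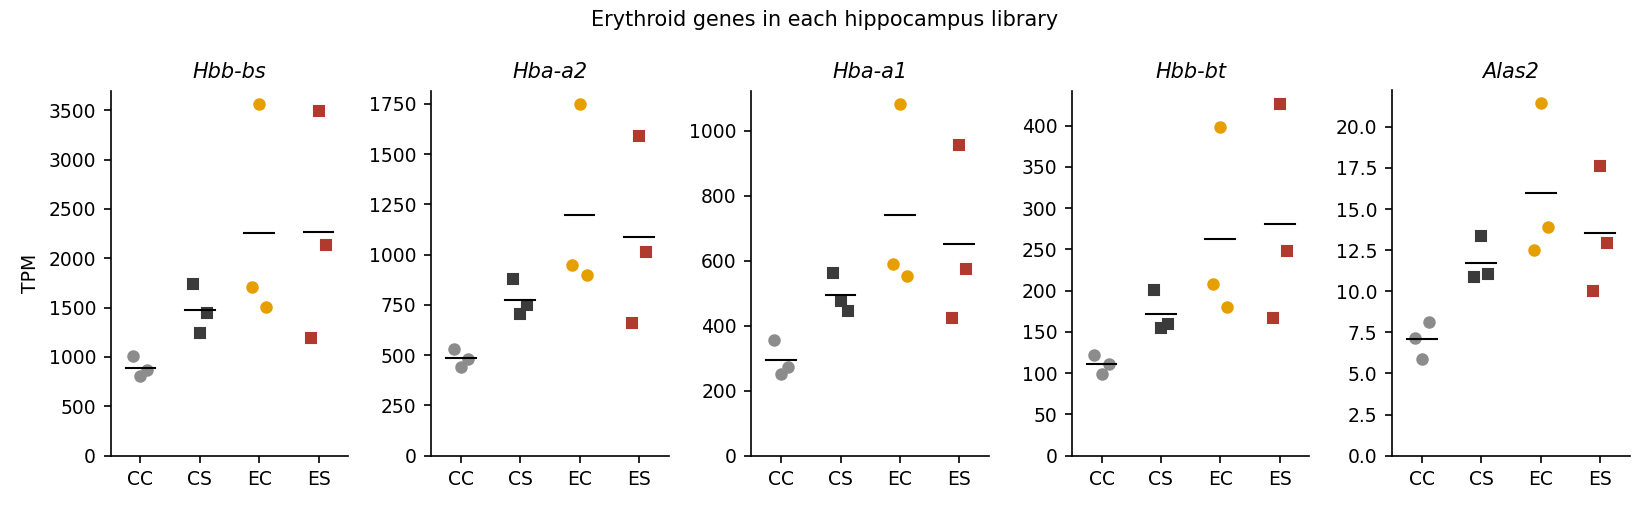
TPM of the 5 tested erythroid genes in each library, by group, with a bar at the group mean and the axis starting at 0. In each gene the CC libraries are lowest and EC2 and ES2 highest, and ES1 lies within or below the CS libraries.

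The promoters of these genes are shown because the genes moved together. The 150 bases before the RefSeq start in GRCm38.p6 were searched on both strands for 4 motifs known from red cell genes, and matches are in capitals. They were GATAA, which GATA factors bind, CACCC, bound by KLF factors, the CCAAT box and the TATA box core TATAA. The windows are chr11:32296342-32296491 (plus strand) for Hba-a2, chr7:103827929-103828078 (minus) for Hbb-bs and chrX:150547267-150547416 (plus) for Alas2, each printed 5′ to 3′ on the strand of its gene.
Hba-a2: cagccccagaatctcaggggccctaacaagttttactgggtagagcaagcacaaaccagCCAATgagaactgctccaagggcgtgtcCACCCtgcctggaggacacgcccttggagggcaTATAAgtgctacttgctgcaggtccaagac
Hbb-bs: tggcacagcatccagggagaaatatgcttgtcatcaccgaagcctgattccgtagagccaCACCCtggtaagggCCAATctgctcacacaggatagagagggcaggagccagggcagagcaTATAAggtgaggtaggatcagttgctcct
Alas2: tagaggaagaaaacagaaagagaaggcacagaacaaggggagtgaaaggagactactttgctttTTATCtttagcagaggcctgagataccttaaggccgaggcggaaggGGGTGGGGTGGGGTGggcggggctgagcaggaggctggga
All 4 globin promoters held the CACCC motif, the CCAAT box and the TATA box core, while Alas2 held the GATA and CACCC motifs. Among 32851 promoters of the same length the CACCC motif was found in 37.4%, the CCAAT box in 24.5%, the TATA box core in 14.2% and the GATA motif in 13.3%. A match describes letters and not a bound site.

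Other lists held few called genes, and 19 of 21 pathway lists and 11 of 14 marker lists held none. Of 12 tested adult neurogenesis genes, of which 4 lay above 0 (list median -0.04), 1 was lower (all genes: 0.339% called lower). It was Dcx, doublecortin, a microtubule protein of immature neurons, at 3.84 ± 0.560 and 2.96 ± 0.241 TPM, with the lowest library without ethanol, CS2 at 3.01 TPM, inside the ethanol range (difference -0.32, SE 0.10, p = 0.00985, exact permutation p = 0.005). The call lies at the threshold and held in only 1 of 12 refits, each with another library removed. For the next genes these refits called C1ql2 in 6, Iyd in 4 and Oasl2 in 8, and Iyd was not called either with a common total, median-of-ratios factors or median centring. Without EC2, ES2 and ES3 the calls of Dcx, Iyd and Oasl2 ended, as they did without EC2 and EC3, and with the mitochondrial level as a term those of Dcx and Oasl2 ended. C1ql2 was called in all 3 of these fits. Of 12 dentate granule cell markers 5 lay above 0 (list median -0.04), among them Glis3 (0.26, SE 0.11). The 1 lower marker (all genes: 0.339% called lower) was C1ql2, a secreted synaptic organiser of mossy fibres. Its values of 32.4 to 46.3 TPM in the ethanol mice lay below all of those without ethanol, 47.3 to 57.1 TPM (difference -0.30, SE 0.09, p = 0.00637, exact permutation p = 0.005). Of 9 CA3 markers 5 lay above 0 (list median 0.03), while Grik4 was at -0.23 (SE 0.09) and not called. The 1 higher CA3 marker (all genes: 0.809% called higher) was Iyd, an iodotyrosine deiodinase (5.99 ± 1.10 and 7.94 ± 1.23 TPM, difference 0.39, SE 0.12, p = 0.00871, exact permutation p = 0.02). Of 16 interferon response genes 9 lay above 0 (list median 0.03), and the 1 higher gene was Oasl2 (1.49 ± 0.315 and 2.40 ± 0.495 TPM, difference 0.54, SE 0.15, p = 0.00412, exact permutation p = 0.01).

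The enzymes of ethanol metabolism did not hold a called gene among 11 tested, and their median difference was 0.03. It was -0.04 without EC2, ES2 and ES3, -0.03 with the mitochondrial level as a term and -0.07 with a common total. Aldh1a1, an aldehyde dehydrogenase that also makes retinoic acid, came nearest. Its values were 102 to 130 TPM without ethanol and 125, 193 and 95.0 TPM in EC and 112, 185 and 163 TPM in ES, so that 3 ethanol libraries lay above the range of the unexposed mice and EC3 below it (difference 0.31, SE 0.16, p = 0.0749, exact permutation p = 0.14).

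No ionotropic glutamate receptor or neuropeptide gene was called. Of 15 ionotropic glutamate receptor subunits 12 had a difference below 0, with a median of -0.16 that was 0.03 without EC2, ES2 and ES3. Grin2b, an NMDA receptor subunit, was at 69.3 to 96.0 TPM without ethanol and 37.8 to 95.0 TPM after ethanol (difference -0.44, SE 0.17, p = 0.0238, exact permutation p = 0.06), and Grik4, a kainate receptor subunit, at 20.0 ± 2.10 and 17.0 ± 1.96 TPM (p = 0.0236, exact permutation p = 0.035). The low Grin2b values were those of ES2, EC2 and ES3. Of 17 neuropeptide precursors 13 lay below 0 (median -0.10, and -0.04 without EC2, ES2 and ES3), among them Adcyap1 (6.40 ± 1.08 and 4.88 ± 0.733 TPM, p = 0.0111, exact permutation p = 0.02), Scg2 (190 ± 10.3 and 165 ± 19.1 TPM, p = 0.0178, exact permutation p = 0.035) and Npy (157 ± 18.6 and 137 ± 12 TPM, p = 0.0367, exact permutation p = 0.04). Bdnf, the neurotrophin of activity-dependent plasticity, had 21.6 ± 2.01 and 18.0 ± 3.53 TPM (difference -0.27, SE 0.12, p = 0.0386, exact permutation p = 0.075), and Gfra1, a GDNF receptor, -0.24 (SE 0.10, p = 0.0299, exact permutation p = 0.04).

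No gene was called in several lists on which ethanol and stress research often centres. The medians were -0.06 over 12 genes of corticosteroid and CRH signalling, 0.01 over 15 glucocorticoid-induced targets, -0.06 over 17 immediate early genes, -0.07 over 12 GABA-A receptor subunits and 0.09 over 19 clock genes. Without EC2, ES2 and ES3 they were -0.03, 0.13, 0.02, 0.02 and 0.06 in that order. Among the glucocorticoid-induced targets, Mt2, a metallothionein, was at 184, 104 and 161 TPM in CC, 110, 156 and 181 in CS, 187, 205 and 110 in EC and 238, 295 and 365 in ES (p = 0.0224, exact permutation p = 0.055). The ES libraries lay above all others, and EC did not. No gene was called either among voltage-gated calcium channel subunits (18 tested, median -0.05), the Polycomb repressive complex 1 (18 tested, median 0.04), which represses developmental genes, and phosphoinositide 3-kinase subunits (11 tested, median -0.09). Without the same 3 libraries their medians were 0.09, -0.02 and 0.05. The smallest p in the last list was that of Pik3c3 (-0.14, SE 0.06, p = 0.0439, exact permutation p = 0.035). Among 15 writers, readers and erasers of DNA methylation, Gadd45a, which takes part in DNA repair and demethylation, had the smallest p (0.30, SE 0.11, p = 0.023, exact permutation p = 0.035).

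The study named 4 genes for ethanol on these same samples, for a change in promoter methylation with an opposite change of a transcript. It reported increased expression for Slc2a9 and Blvrb and decreased expression for Eif4g1 and Myo6. The values of the 4 genes here, of RNA only, are no independent evidence. Gene sums over 6 against 6 libraries are also not the groups and level of its tests. None was called here. Slc2a9, a urate and glucose transporter, had 2.67 ± 0.673 and 3.99 ± 0.955 TPM (difference 0.50, SE 0.19, p = 0.0202, exact permutation p = 0.045). It was at 5.09, 4.21 and 3.69 TPM in EC, above the 3 CC libraries, and at 2.32 to 4.65 TPM in ES, across the range of CS. In EC against CC alone Slc2a9 passed the threshold (0.80, SE 0.25) and the other 3 genes did not. Blvrb, a biliverdin reductase (0.15, SE 0.14, p = 0.303, exact permutation p = 0.365), Eif4g1, the scaffold of the cap-binding complex (-0.23, SE 0.15, p = 0.143, exact permutation p = 0.19), and Myo6, a motor that moves towards the minus end of actin (0.05, SE 0.08, p = 0.561, exact permutation p = 0.57), had p values far above the threshold. In Eif4g1 the ethanol libraries ranged from 62.3 to 114 TPM and those without ethanol from 87.1 to 102 TPM.

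A few called genes outside the rule are given for their roles and were chosen after their values were seen. Oprm1, the mu opioid receptor, was lower, with 3.35 ± 0.963 and 2.03 ± 0.450 TPM (difference -0.58, SE 0.18, p = 0.00772, exact permutation p = 0.025), and so was Slc6a9, the glycine transporter of glia, with 27.5 ± 2.56 and 23.3 ± 1.43 TPM (p = 0.00867, exact permutation p = 0.02). Higher were Dlg4, which codes for the postsynaptic scaffold PSD-95 (216 ± 7.42 and 248 ± 18.7 TPM, p = 0.00654, exact permutation p = 0.005), the histone deacetylase Hdac4 (26.7 ± 2.50 and 31.8 ± 1.17 TPM, p = 0.00266, exact permutation p = 0.005) and the histone demethylase Kdm6b (1.44 ± 0.377 and 2.20 ± 0.307 TPM, p = 0.00905, exact permutation p = 0.01). In Hdac4 the 6 ethanol libraries, 30.8 to 34.0 TPM, lay above all 6 others, although CS2 at 30.6 TPM came close. With 1 library removed at a time, Hdac4 was called in 12 of 12 refits, Oprm1 in 4, and Slc6a9, Dlg4 and Kdm6b in 3 each. Oprm1, Slc6a9, Dlg4 and Kdm6b were not called with the mitochondrial level as a term, and the last 3 also not with a replicate block or in the 4-group model. Over the settings other than these refits, differences were -0.67 to -0.5 for Oprm1 and -0.33 to -0.16 for Slc6a9. They were 0.1 to 0.21 for Dlg4, 0.16 to 0.29 for Hdac4 and 0.4 to 0.61 for Kdm6b. With a common total Hdac4, Slc6a9, Dlg4 and Kdm6b were not called, and without EC2, ES2 and ES3 none of the 5 was called in limma.

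A set of 3 libraries, all of ethanol mice, stood apart. EC2, ES2 and ES3 had 90500, 87800 and 94300 TPM in the 13 mitochondrially encoded respiratory genes, against 52000 to 69700 TPM in the other 9 libraries. The TPM of all transcripts summed to 1173649.8 in EC2, 1126489.7 in ES2 and 1130570.7 in ES3. In the other 9 libraries this sum was 889222.3 to 1024268.5 TPM. The mitochondrial sums above were not brought to a common total, so they carry these differences in total. EC2, ES2 and ES3 also had the highest weights on the first principal component, which held 22.6% of the variance, and EC3 had the lowest. The hippocampus itself was represented in each library, with summed dentate granule cell markers of 246 to 323 TPM and CA1 markers of 285 to 387 TPM.

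The mitochondrially encoded genes had differences above 0 in 13 of 13, with a median of 0.28, and 4 with a p under 0.05, but none was called. mt-Atp6, a subunit of ATP synthase, had a difference of 0.48 (SE 0.19, p = 0.0222, exact permutation p = 0.04). Of 78 cytosolic ribosomal protein genes 78 lay above 0, with a median of 0.19, and of 83 nuclear subunits of oxidative phosphorylation 78 did, with a median of 0.14; none was called in either list. Without EC2, ES2 and ES3 these medians turned to -0.12 for ribosomal proteins, -0.10 for the nuclear subunits and -0.05 for the mitochondrially encoded genes, by whose level the 3 libraries were chosen. With the mitochondrial level as a term the first 2 were -0.07. With a common total the medians stayed above 0, at 0.09, 0.04 and 0.18 for ribosomal, nuclear and mitochondrially encoded genes.

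Cell type markers were read in the same way. Of 11 astrocyte markers 9 lay above 0 (median 0.13, and -0.14 without EC2, ES2 and ES3), and their sums were 2910 to 3280 TPM without ethanol and 3730, 3810 and 4000 TPM in EC2, ES2 and ES3, but 2560 and 2690 TPM in EC3 and ES1. Of 12 oligodendrocyte markers 10 lay below 0 (median -0.13), while their summed TPM, 4210 to 6420 without and 3190 to 6850 with ethanol, was highest in ES2 and ES3, with Mag, a myelin adhesion protein, at -0.23 (p = 0.0383, exact permutation p = 0.055), and of 12 microglia markers 8 lay above 0 (median 0.11), with C1qb, a complement subunit, at 0.30 (p = 0.0172, exact permutation p = 0.055). Interneuron markers had a median of -0.17 over 11 genes, among them Slc32a1, the vesicular GABA transporter (-0.30, p = 0.0212, exact permutation p = 0.03), and endothelial and pericyte markers 0.03 over 13, with the VEGF receptor gene Kdr at -0.37 (p = 0.021, exact permutation p = 0.025). None of these genes was called. Without EC2, ES2 and ES3 the medians were -0.32 for oligodendrocyte, -0.08 for microglia, -0.03 for interneuron and 0.02 for endothelial and pericyte markers. Markers of the thalamus, striatum and cortex, which border the dissected tissue, had medians of -0.05, -0.01 and -0.04.

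Choroid plexus, the tissue that secretes cerebrospinal fluid beside the hippocampus, differed between libraries more than between groups. On the log2 scale all 12 of its markers had a difference below 0, with a median of -0.58 and none called. Ttr, transthyretin, was at 1251, 591 and 1782 TPM in CC, 1785, 5100 and 1600 in CS, 3424, 70.7 and 30.0 in EC and 2235, 7089 and 191 in ES. EC2, EC3 and ES3 were far below all other libraries, and ES2 was the highest of the 12, so that the mean TPM, 2018 without and 2173 with ethanol, had the other direction (log2 difference -1.62, SE 1.09, p = 0.162, exact permutation p = 0.23). EC3 also had 290 TPM in pituitary hormone genes, against 3.79 to 96.9 TPM elsewhere, a list added after the values were seen. Without EC2 and EC3, 144 genes were called for ethanol and 70 of the 166 were among them. Hba-a1, Hba-a2, Hbb-bs, Alas2, Rpl10a-ps1, Oprm1, Slc6a9 and Kdm6b were then not called. Over the settings other than single-library refits, the differences were -0.67 to -0.5 for Oprm1, 0.4 to 0.61 for Kdm6b and -0.33 to -0.16 for Slc6a9. For Rpl10a-ps1 they were -4.9 to -2.94, and for Hba-a1, Hba-a2, Hbb-bs and Alas2 0.52 to 0.8, 0.49 to 0.82, 0.41 to 0.87 and 0.37 to 0.65. The part of attached tissue in these and the other calls was not tested.

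**Figure D4:**
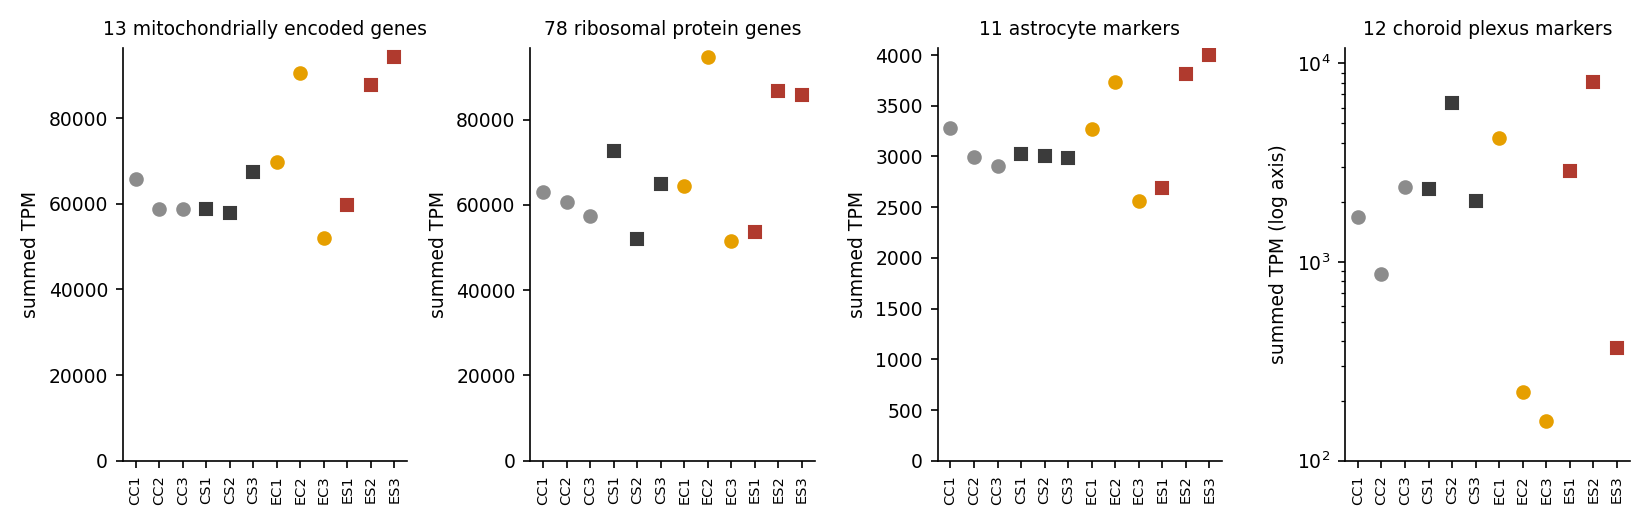
Summed TPM of 4 gene lists in each of the 12 libraries, with grey for mice without ethanol and colour for ethanol mice, and a log axis for the choroid plexus only. EC2, ES2 and ES3 are the 3 highest for mitochondrially encoded, ribosomal and astrocyte genes, and EC2, EC3 and ES3 the 3 lowest for the choroid plexus.

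The count over all 12 libraries was repeated without EC2, ES2 and ES3. Then 123 genes were called, 70 higher and 53 lower, of which 25 belonged to the 166. With the mitochondrial level as a term 155 genes were called, 83 higher and 72 lower, of which 46 belonged to the 166. Of the 24 protein-coding genes named by rule, all 24 kept their sign without the 3 libraries and 9 were called, which were Cth, Dhx35, Ptges3l, Dpf2, Acrbp, Tmem253, Rnf123, Cpne2 and Pde7b. Without EC2 and EC3, 18 of the 24 were called, and Tmem253, Gpr37, Cpne2, Cpne7, Kirrel2 and Pde7b were not. Over the settings other than single-library refits, these genes kept their sign. Their differences were then 1.1 to 1.78 for Tmem253, -0.35 to -0.2 for Gpr37, -0.4 to -0.26 for Cpne2 and -0.34 to -0.2 for Cpne7. For Kirrel2 they were -0.54 to -0.41 and for Pde7b -0.36 to -0.24. With the mitochondrial level as a term 20 of the 24 were called, and Sinhcaf, Nos1, Lpl and Ddx1 were not. The 24 were picked on all 12 libraries, so signs and calls kept in these fits are no sign of stability. Scaling between libraries bears on the direction. The 3 libraries with the highest TPM sums, EC2, ES2 and ES3, were all of ethanol mice. With TPM brought to a common total, 98 genes were called, 36 higher and 62 lower. The median over all genes then moved from 0.015 to -0.08. The share of calls that were higher was 70.5% as reported, 36.7% with a common total, 59.6% with median-of-ratios factors and 55.3% with the trend over length removed. Of the 24 named genes 21 were called with a common total, and Dpf2, Rfxank and Bicdl1 were not. With the trend over length removed 22 were called, and Ptges3l and Bicdl1 were not.

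**Figure D5:**
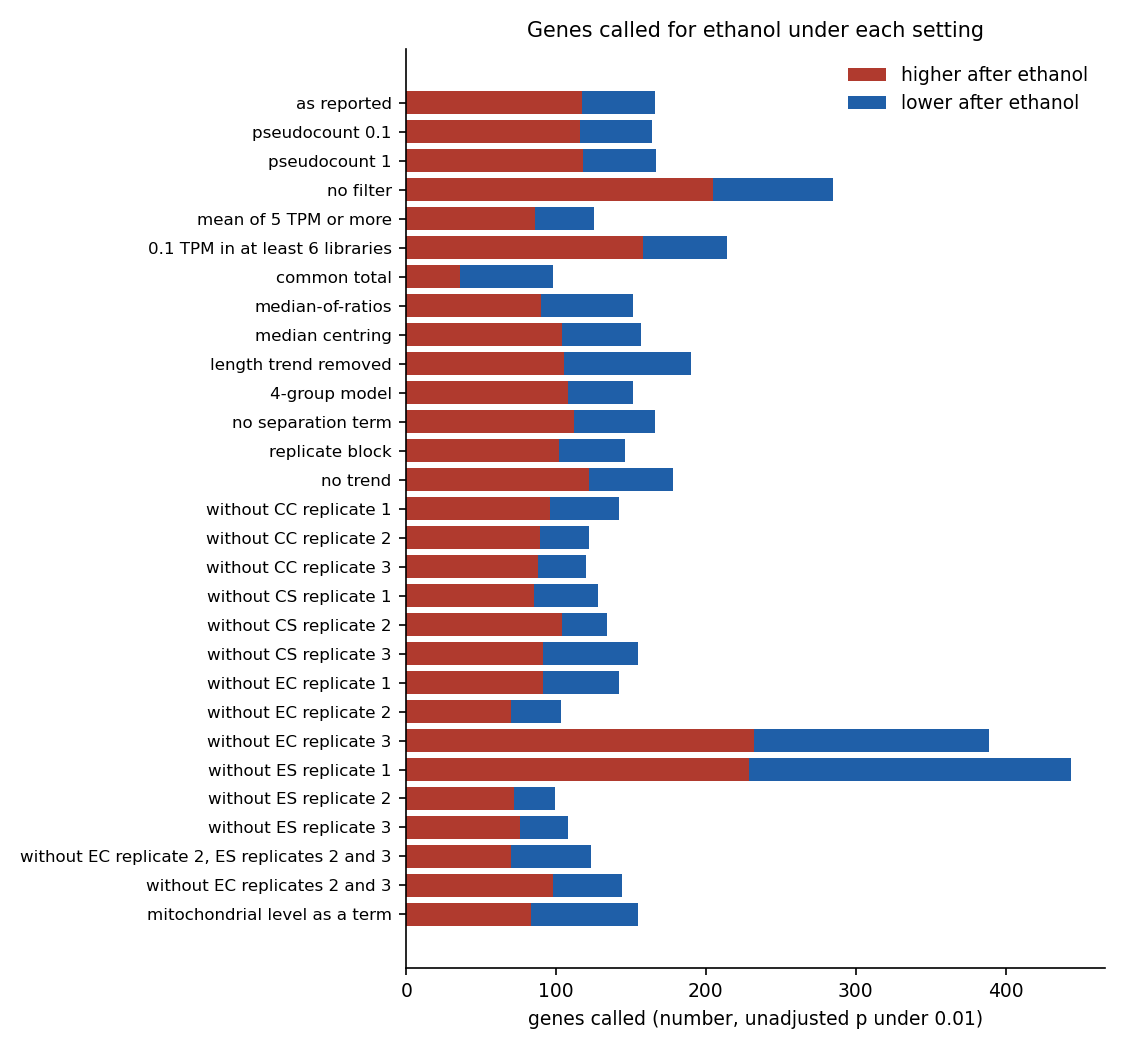
Number of genes called for ethanol at an unadjusted p under 0.01 under each setting, as stacked bars from 0 with higher genes in red and lower genes in blue. The count was 166 as reported and lay between 98, with a common total, and 444, without ES1, and the share of higher genes changed with the scaling.

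At the level of transcripts, 35350 of 113580 had a mean of 1 TPM or more and 408 were called (1.15%), 257 higher (0.727%) and 151 lower (0.427%). The share called was again near what the threshold lets through when none differs. Of the 408 transcripts 62 belonged to genes called as sums, beside 395 of the 35350 tested. Transcripts that were higher were short, with a median of 803 bases beside 1860 over all tested transcripts, and 24.1% of them were annotated as retained introns beside 11.5%. A value of 0 in at least 1 library was found in 36.0% of called and 19.8% of all tested transcripts, and 81 transcripts (0.229%) lay above and 42 (0.119%) below without overlap.

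After adjustment 2 transcripts stayed under 0.05 (0.00566%), while 2105 had an unadjusted p under 0.05 (5.95%). They were the single transcript of Gm49070 and ENSMUST00000100755.3, a protein-coding isoform of Unc119, which codes for a carrier of lipid-modified proteins. The Unc119 isoform (chr11:78346666-78348979) was at 3.03, 4.25 and 4.54 TPM in CC and 3.59, 2.07 and 2.11 TPM in CS, worth 11 to 27 read pairs. It was listed at 0 in 5 ethanol libraries and at 0.457 TPM, worth 3.1 read pairs, in EC3 (difference -2.71, SE 0.26, p = 3.01e-07, exact permutation p = 0.005, adjusted p = 0.0106). The size depends on the pseudocount. The isoform passed the filter of 1 TPM through the libraries without ethanol alone, so that its p, adjusted or not, is a description only. The 7 transcripts of Unc119 together were at 32.6 ± 2.90 and 33.8 ± 5.23 TPM (difference 0.05, SE 0.10).

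Of the other lower transcripts named by rule, 3 were also at or near 0 in most ethanol libraries, and since these 3 passed the filter through the unexposed side alone, their p values are descriptions too. ENSMUST00000231753.1 of AI413582 was at 5.07 to 18.4 TPM without ethanol and at 0 to 0.0037 TPM in 5 ethanol libraries, with 3.13 TPM in ES3 (p = 7.09e-06, exact permutation p = 0.005). ENSMUST00000218227.1 of Dapk3, a kinase of cell death and contraction, was listed at 0 in all 6 ethanol libraries, and at 0.8 to 5.9 read pairs in the others (p = 8.08e-06, exact permutation p = 0.005). ENSMUST00000117360.7 of Litaf, a protein of endosomal sorting, had 2.23 to 3.85 TPM against 0 in 4 ethanol libraries, 0.29 in ES1 and 1.60 in ES3 (p = 2.27e-05, exact permutation p = 0.005). ENSMUST00000116341.3 of Slc25a51, the mitochondrial NAD carrier, was at 18.5 to 31.2 TPM without ethanol and 6.98 to 7.41 TPM in 5 ethanol libraries, with EC2 at 20.7 TPM among the unexposed mice (difference -1.41, SE 0.24, p = 8.94e-05, exact permutation p = 0.01). The sums of these genes differed by 0.17, 0.05, -0.13 and 0.01, with an SE of 0.16, 0.07, 0.11 and 0.06, and none was called.

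Of the higher transcripts named by rule, ENSMUST00000020710.10, a protein-coding isoform of Tcn2, which carries vitamin B12 in blood, was at 1.5 and 1.02 TPM in CS2 and CS3, near 0 in the other 4 libraries without ethanol, and at 1.94 to 3.78 TPM in all ethanol libraries (difference 2.13, or 1.55 to 3.61 with other pseudocounts, SE 0.36, p = 8.89e-05, exact permutation p = 0.005). Transcripts of Smim8 (ENSMUST00000131295.1) and Tmem62 (ENSMUST00000147347.1) were at 0 in 5 of 6 libraries without ethanol, but the ethanol values were worth no more than 2.5 and 3.8 read pairs. That of Ube2m (ENSMUST00000126827.1) was at 0 to 2.57 TPM and 1.65 to 4.42 TPM (p = 9.75e-05, exact permutation p = 0.005). All 4 had a mean under 1 TPM without ethanol and passed the filter through the ethanol libraries alone, so that the p values of the Tcn2 and Ube2m transcripts are descriptions only.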

How the data were processed

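Stranded, ribosome-depleted total RNA of 12 hippocampi was sequenced, and per the labels and methods the authors quantified it with kallisto against Ensembl transcripts of the mouse (mm10, GRCm38), normalised it with sleuth and used CASAVA, with versions not given in the sources used here. The deposited values are a signal, TPM scaled between libraries by the authors, that sum to 889222 to 1173650 per library. Of 115270 transcripts, 113580 matched GENCODE M21 by identifier and were summed to 35580 genes, with 0.518% to 0.58% of each library's signal left unmatched. Genes or transcripts with a mean of 1 TPM or more were tested. limma 3.58.1 in R 4.3.3 (trended empirical Bayes) was fitted to log2(TPM + 0.5) with ethanol and separation as terms, and a 4-group model gave EC against CC, ES against CS and the difference between them. The added 0.5 understates changes of low genes. Calls used an unadjusted p under 0.01, two-sided, and adjusted p are Benjamini-Hochberg over all genes or all transcripts tested. The exact permutation test exchanged ethanol labels within strata (400 arrangements, smallest p 0.005). Tables were handled in Python 3.11.15 with pandas 2.3.3 and numpy 2.4.6.

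Depth was read from the step that 1 read pair makes in low values. Between 80.7% and 82.6% of these were whole within 0.15 read pairs, too few for a count test, so depths are estimates and read pairs per transcript cover counting error only. Named genes were, by rule, the 12 higher and 12 lower protein-coding called genes with the smallest p and 1 sign in both strata, the 2 higher and 2 lower other genes, the 5 transcripts each way from genes not called as sums, called list members (up to 4 a list, otherwise up to 2 with the smallest p, and the most abundant marker), the 3 genes each way for the difference between strata, and 4 genes that the study named. The comparison, its members and the lists were chosen with earlier results of these data known. Alternatives were 2 other pseudocounts, other filters, scalings and model terms, and each library left out. The authors' own comparisons were not used, and litters were not given. Some genes and transcripts that the rule names are not reported here.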

Additional observations from a re-analysis of the deposited data

Results flagged for a closer look

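Among 226 sets of 6 libraries (named genes, transcripts and list sums on either side), 18 had 1 library far from the other 5, judged by its gap to the nearest as a share of the whole range, against Dixon's critical value for 6 values. Chance alone gives about 1 in 20 such sets.

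Named genes had few such libraries. ES2 was lowest for Nos1 among the ethanol mice (0.724 of the range), CC3 highest for Kirrel2 (0.656) and CC1 highest for Oasl2 (0.693) among mice without ethanol, and EC3 lowest for Mag (0.694). Rpl10a-ps1 had CS3 as the lowest library without ethanol (0.725) and ES2 as the highest with it (0.829).

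Transcripts accounted for most of the others. ES1 was lowest among ethanol libraries for ENSMUST00000126827.1 of Ube2m (0.679). ES3 was the highest ethanol library for ENSMUST00000231753.1 of AI413582 (0.996) and ENSMUST00000117360.7 of Litaf (0.681), EC3 for ENSMUST00000100755.3 of Unc119 (1.0) and EC2 for ENSMUST00000116341.3 of Slc25a51 (0.947). Without ethanol, CS3 alone was above 0 for ENSMUST00000131295.1 of Smim8 (1.0) and ENSMUST00000147347.1 of Tmem62 (1.0), and CS2 was lowest for ENSMUST00000218227.1 of Dapk3 (0.807).

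Of the summed lists, CS1 was lowest for voltage-gated calcium channel subunits (0.63), and CC3 highest for the circadian clock (0.694) and CC1 for astrocyte markers (0.69), all without ethanol. ES1 was the lowest ethanol library for adult neurogenesis genes (0.709).

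A change of the ethanol difference with separation was called, by the test of the change itself and before adjustment, in Tmem253 (-1.83, a size that rests on the pseudocount because its CC values lie under 3 read pairs), Mbtps2 (-0.70), Hyal2 (-0.68), Plin3 (0.64), Ptpn1 (0.91) and Ifitm7 (1.83), in log2 units of ES against CS minus EC against CC. This test called 0.311% of genes, below what its threshold lets through when no gene differs.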

How the results depend on the processing

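Counts depended on the filter, the scaling and single libraries, and leaving out 1 library kept between 74 (without ES2) and 127 of the 166 gene calls. The 24 protein-coding genes named by rule were all called in each of these fits, but they were picked for the smallest p and 1 sign in both strata, so that this is no sign of stability. Without a filter 285 genes, 1082 transcripts, 198 genes for EC against CC, 189 for ES against CS and 131 for the difference between strata were called. With 0.1 TPM in at least 6 libraries 880 transcripts, 125 genes for EC against CC and 85 for the difference were called, and with a mean of 5 TPM or more 164 transcripts and 26 genes for the difference. With a common total 98 genes were called in all and 58 for ES against CS. Leaving out 1 library gave 99 to 444 genes (103 without EC2, 389 without EC3, 444 without ES1, 99 without ES2, 108 without ES3) and 318 to 722 transcripts (631 without EC3, 722 without ES1). It gave 47 to 109 genes for EC against CC (109 without EC3), 61 to 519 for ES against CS (519 without ES1) and 35 to 89 for the difference between strata (76 without EC2, 89 without ES1). Fewer libraries bring fewer residual degrees of freedom, and the cause of the higher counts was not tested. Gm49070 fell out of the test at a mean of 5 TPM and without EC2. It also fell out without EC2, ES2 and ES3 and without EC2 and EC3.

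Correlations of same-numbered deviations lay between -0.213 and 0.2 and 2 of 18 were above 0.1. Without differently numbered libraries beside them they cannot settle whether replicate numbers pair the libraries, and the labels do not say. With the replicate block 146 genes, 377 transcripts, 69, 80 and 44 genes for the 3 other tests were called. Leaving out EC2, ES2 and ES3, leaving out EC2 and EC3, and the mitochondrial term were chosen after seeing the data. Differences that changed sign belonged to uncalled genes: Aldh1a1 (-0.04), Blvrb (-0.12), Eif4g1 (0.11) and Myo6 (-0.10) without EC2, ES2 and ES3, Blvrb (-0.07), Eif4g1 (0.04) and Myo6 (-0.08) with the mitochondrial term, Myo6 (-0.05) with a common total and Ttr (0.04) without EC2 and EC3. The cause was not tested.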
